A study of Homo sapiens with 2 samples.

Results

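The genes described here encode RNA polymerase I (Pol I), RNA polymerase III (Pol III) and the factors that load, stop or restrain them. The members were 35 named gene symbols chosen by function, with earlier results of these data known. Each symbol was represented by its transcript with the highest mean RPKM (reads per kilobase of transcript, scaled to library size) over both libraries. All 35 were found, out of 19096 symbols, and all 35 reached the mean RPKM of 1 that defined the 10272 expressed genes. By role, 13 belong to Pol I, 19 to Pol III, 2 are subunits of both enzymes, and 1, MAF1, is a repressor of Pol III.

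The high c-Myc library came from P493-6 cells 24 h after a tetracycline-repressed c-Myc transgene was released, and the low c-Myc library came from the same line at 0 h. P493-6 is a human B cell line, labelled a B-cell lymphoma, and both groups carry the transgene and were grown in RPMI medium with serum. Each condition had 1 library, so differences have no replicate check and no test could be run between conditions, and condition and library cannot be told apart. Synthetic RNAs were added by cell number, which gives a second, per-cell scale.

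Pol I has a single task in human cells, the transcription of the precursor of the large ribosomal RNAs in the nucleolus. Pol III makes transfer RNAs, the smallest ribosomal RNA and a set of short noncoding RNAs. Both enzymes need their own loading factors, and their output sets how many ribosomes a growing cell can build. MYC is known to act on both systems, by binding factors of each and by raising the expression of their genes.

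Sequencing depth, read from the spacing of low RPKM values, came to about 105000000 reads for high c-Myc and 103000000 for low c-Myc. With these depths 46.3% and 48.7% of low transcripts in high and low c-Myc cells came within 0.05 of a whole read. Chance would give 10% at a depth fixed beforehand. The depths were picked to bring these same transcripts near whole reads, so the shares are no separate check. Read numbers are therefore approximate. All 7 B cell markers were expressed, with a summed RPKM of 6469 in high c-Myc cells and 15164 in low c-Myc cells. Markers of other lineages were weak, with summed RPKM of 2.17 and 13.3 for 6 T cell genes (CD3D and CD8A at 0 in both), 0.319 and 1.65 for 4 NK cell genes and 35.6 and 151 for 5 myeloid genes in high and low c-Myc cells. The sums were 10.3 and 8.58 for 4 fibroblast and epithelial genes in high and low c-Myc cells. On the deposited RPKM scale, the B, T, NK and myeloid sums were thus smaller in high c-Myc cells. On the per-cell scale, median log2 ratios were 1.37 for the 7 B cell, 0.51 for 3 expressed T cell and 0.2 for 3 expressed myeloid genes. That median was 2.78 over all expressed genes. The part of these marker genes in the results was not tested. MYC stood at an RPKM of 2358 in high c-Myc cells and 836 in low c-Myc cells.

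On the deposited RPKM scale, 16 of the 35 members were at least 2-fold above low c-Myc cells in high c-Myc cells, and none was at least 2-fold lower. The same was true of 24.9% of all expressed genes for higher and 9.74% for lower. A gene was counted at 2-fold when its log2 ratio of RPKM, taken after adding 0.5 to each value, reached 1 or -1. In bulk RNA, a larger share of cells expressing a gene and more of its RNA per cell cannot be told apart. The median log2 ratio of the members was 0.74, against 0.22 over all expressed genes, and 28 members lay above that overall median. Without the pseudocount, the 95% exact binomial interval on approximate reads lay above a ratio of 1 for 30 members, below it for 4 and across it for GTF3C3. These intervals cover counting error only, and the widest spanned 0.49 on the log2 scale. No share over all expressed genes is given for these intervals, so their counts do not set the members apart.

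**Figure D1:**
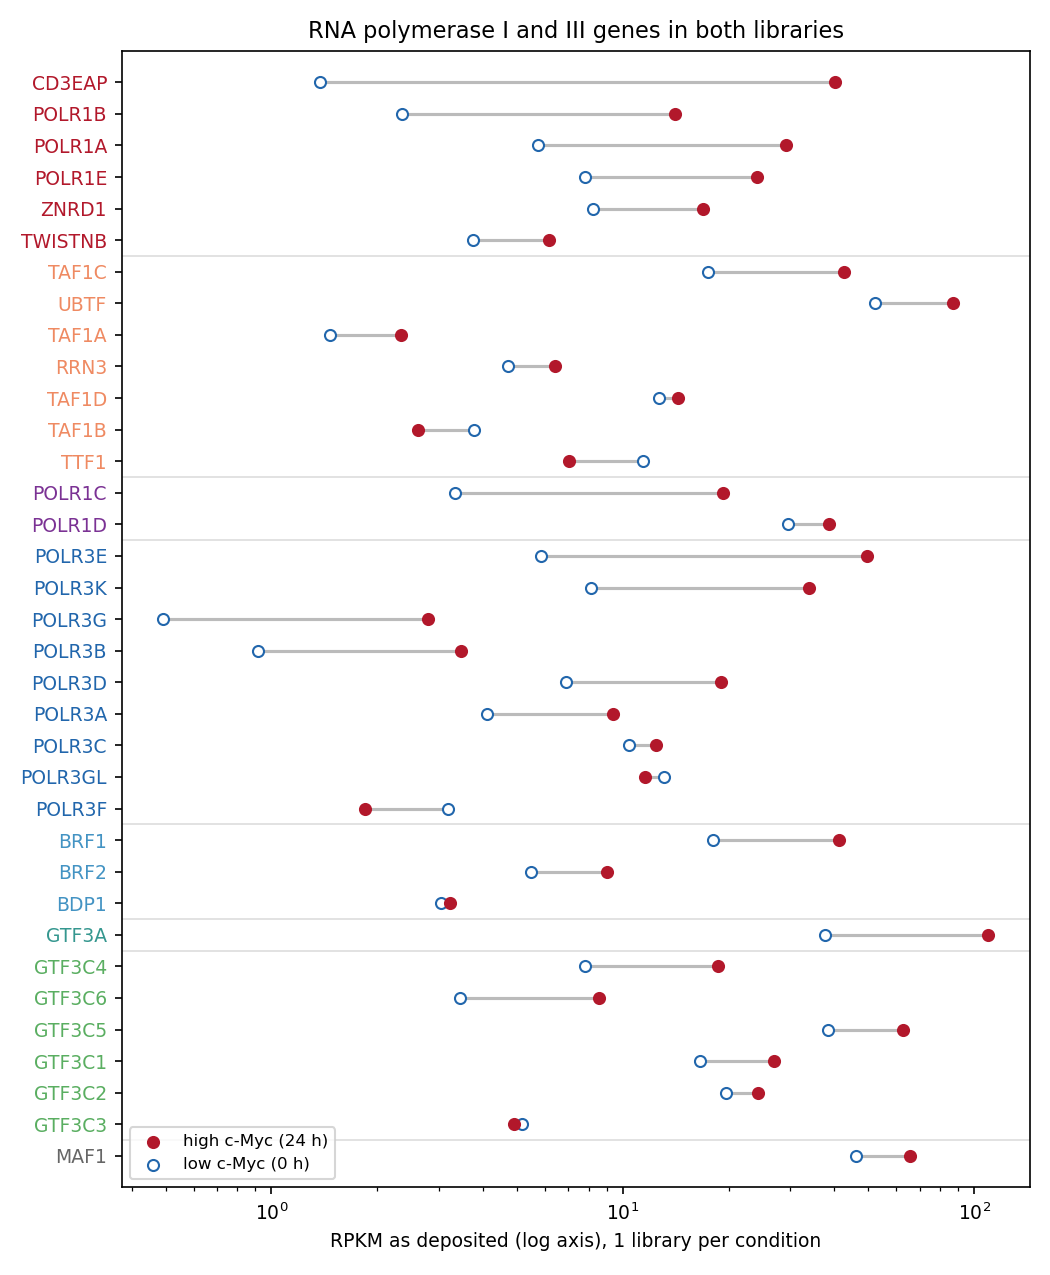
RPKM of the 35 members (horizontal log axis) in high c-Myc cells (filled) and low c-Myc cells (open), 1 library each, grouped by role in the colours of the names: Pol I subunits, Pol I factors, shared subunits, Pol III subunits, TFIIIB, TFIIIA, TFIIIC and MAF1. The high c-Myc point lies to the left for TAF1B, TTF1, POLR3GL, POLR3F and GTF3C3, and CD3EAP has the widest gap.

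MYC and its partner MAX bind the E-box CACGTG, and the promoters of some members hold it. In the 250 bases before the most upstream RefSeq start (GRCh38.p14), searched on both strands, which read the same for this palindrome, the E-box occurred in 6 of the 30 members matched by gene ID (20%). It occurred in 6.49% of all 27305 windows and in 9.43% of 7717 windows of expressed genes, which were matched by symbol instead. The sites are shown because they are the members' matches to the sequence that MYC binds, with the E-box in capitals, 5′ to 3′ on the strand of the gene. The CD3EAP line is shorter because its E-box begins 12 bases before the start and only bases upstream of the start are shown.
CD3EAP (RefSeq symbol POLR1G, chr19:45406615-45406643, + strand): ccctacccctttggatcCACGTGgtctgc
POLR3A (chr10:78029528-78029567, - strand): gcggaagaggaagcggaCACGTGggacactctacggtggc
POLR3C (chr1:145823987-145824026, + strand): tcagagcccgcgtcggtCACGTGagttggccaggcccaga
GTF3C2 (chr2:27356845-27356884, - strand): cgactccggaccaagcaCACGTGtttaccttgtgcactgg
GTF3C4 (chr9:132669983-132670022, + strand): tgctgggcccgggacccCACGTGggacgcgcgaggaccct
GTF3C6 (chr6:110958547-110958586, + strand): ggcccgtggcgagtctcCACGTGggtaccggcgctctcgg

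Of these 6 genes, 1 was among the 12 Pol I windows and 5 among the 16 Pol III windows, and 4 were at least 2-fold higher in high c-Myc cells (CD3EAP, POLR3A, GTF3C4 and GTF3C6). Their median log2 ratio was 1.15, with a range of 0.24 to 4.44, and that of the 24 members without the E-box was 0.70, of which 10 were at least 2-fold higher. The related motif CACGCG, which shares no full match with CACGTG, was found on either strand in 8 of the 30 windows (26.7%), in 9.62% of all windows and in 16.2% of those of expressed genes. The members with it were POLR3E, POLR3K, POLR1C, TAF1C, GTF3C4, UBTF, RRN3 and GTF3C3, with a median log2 ratio of 1.23 and a range of -0.07 to 2.98, and 5 of them were at least 2-fold higher. The 22 members without it had a median of 0.67 and a range of -0.66 to 4.44, and 9 of them were at least 2-fold higher. Over all expressed genes, 24.9% were at least 2-fold higher. The matches are letters in a window and were not tested for binding. POLR1E, POLR3D, POLR3G, BRF2 and MAF1 were not analysed here for motifs.

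Among the 6 subunits that belong to Pol I alone, 4 (66.7%) were at least 2-fold higher in high c-Myc cells, against 24.9% of all expressed genes. The largest ratio of any member was that of CD3EAP, which pairs with POLR1E on the body of the enzyme. CD3EAP (NM_012099) stood at an RPKM of 40.1 in high c-Myc cells and 1.37 in low c-Myc cells, a 29.2-fold ratio with a counting interval of 26.6 to 32.1. Its log2 ratio with the pseudocount, 4.44, ranked 20 among the 10272 expressed genes. CD3EAP was the highest of these subunits in high c-Myc cells and the lowest in low c-Myc cells.

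In GENCODE release 29, 43.5% of the exon bases of CD3EAP overlap exons of ERCC1, a DNA repair gene on the opposite strand. The library protocol keeps the strand, but the use of strand in counting is not stated in the sources at hand. ERCC1 stood at an RPKM of 39.6 in high c-Myc cells and 44.5 in low c-Myc cells, a log2 ratio of -0.17. The part of the overlap in the ratio of CD3EAP was not tested.

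The catalytic centre of Pol I is formed by POLR1A and POLR1B, and both were higher. POLR1A (NM_015425) had an RPKM of 29.2 in high c-Myc cells and 5.72 in low c-Myc cells, a 5.10-fold ratio with a counting interval of 4.98 to 5.23. POLR1B (NM_019014) had 14.1 and 2.35 in high and low c-Myc cells, a 6.02-fold ratio (5.65 to 6.42). POLR1E, the partner of CD3EAP, had 24.1 in high c-Myc cells and 7.81 in low c-Myc cells, a 3.08-fold ratio.

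The other 2 Pol I subunits lay under the threshold. ZNRD1, which cleaves backtracked RNA within the enzyme, was just under it at a log2 ratio of 0.997, with an RPKM of 16.9 in high c-Myc cells and 8.20 in low c-Myc cells. It passed with a smaller pseudocount, and 24.5% of its exon bases overlap an antisense pseudogene. TWISTNB, part of the stalk that receives the loading factor RRN3, had an RPKM of 6.18 in high c-Myc cells and 3.75 in low c-Myc cells (log2 ratio 0.65). Summed over the 6 subunits, RPKM was 131 in high c-Myc cells and 29.2 in low c-Myc cells, a 4.47-fold ratio.

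Of the 7 factors that load or stop Pol I, 1 (14.3%) was at least 2-fold higher, against 24.9% of all expressed genes. Their median log2 ratio was 0.41, against 1.91 for the 6 subunits. That 1 gene was TAF1C, one of the proteins that form the promoter selectivity complex with the TATA-binding protein, at an RPKM of 42.7 in high c-Myc cells and 17.5 in low c-Myc cells (log2 ratio 1.26). The other proteins of that complex had log2 ratios of 0.53 for TAF1A, 0.18 for TAF1D and -0.45 for TAF1B, none past the 2-fold rule. TAF1A stood at an RPKM of 2.34 in high c-Myc cells and 1.47 in low c-Myc cells, TAF1B at 2.61 and 3.76, and TAF1D at 14.4 and 12.7 in the same order of libraries.

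UBTF, which coats active ribosomal DNA, stood at an RPKM of 87.3 in high c-Myc cells and 52.2 in low c-Myc cells (log2 ratio 0.74), where it was the most abundant of all members. RRN3, which carries Pol I to the promoter, had an RPKM of 6.42 in high c-Myc cells and 4.72 in low c-Myc cells, a log2 ratio of 0.41. RRN3 has transcribed pseudogene copies that may share its reads. TTF1, which binds the terminators of the ribosomal genes, had the lowest log2 ratio of all members at -0.66, with an RPKM of 7.05 in high c-Myc cells and 11.4 in low c-Myc cells. It did not reach the 2-fold rule.

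POLR1C and POLR1D form the platform on which both Pol I and Pol III assemble, and they differed from each other. POLR1C (NM_203290) had an RPKM of 19.3 in high c-Myc cells and 3.33 in low c-Myc cells, a 5.79-fold ratio with a counting interval of 5.25 to 6.41. POLR1D (NM_015972) had 38.5 and 29.5 in high and low c-Myc cells, a 1.31-fold ratio (1.23 to 1.38). The RPKM of POLR1C was thus closer to that of its partner in high c-Myc cells. Other POLR1D transcripts had larger log2 ratios, 1.02 for NM_001206559 and 0.86 for NM_152705, at lower RPKM.

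Of the 9 Pol III subunits, 6 (66.7%) were at least 2-fold higher in high c-Myc cells, against 24.9% of all expressed genes. Their median log2 ratio was 1.40. POLR3E, which pairs with POLR3D on the body of the enzyme much as CD3EAP pairs with POLR1E on Pol I, had the second largest ratio of the members. POLR3E (NM_018119) stood at an RPKM of 49.5 in high c-Myc cells and 5.85 in low c-Myc cells, an 8.45-fold ratio with a counting interval of 8.09 to 8.83. POLR3D had 19.0 in high c-Myc cells and 6.90 in low c-Myc cells, a 2.75-fold ratio. Within this pair on each enzyme, the ratio of POLR3E exceeded that of POLR3D, and the ratio of CD3EAP exceeded that of POLR1E.

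The catalytic subunits of Pol III, POLR3A and POLR3B, were also higher. POLR3A, the largest subunit, had an RPKM of 9.37 in high c-Myc cells and 4.10 in low c-Myc cells (2.29-fold), and POLR3B had 3.47 and 0.914 in high and low c-Myc cells (3.80-fold). POLR1A was 3.12 times as abundant as POLR3A in high c-Myc cells and 1.40 times in low c-Myc cells, on the per-length RPKM scale. POLR3K, which takes part in termination and RNA cleavage, had 33.9 in high c-Myc cells and 8.12 in low c-Myc cells, a 4.18-fold ratio.

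POLR3C, POLR3F and either POLR3G or its paralog POLR3GL form an arm of Pol III that acts in initiation. Of these 4 genes only POLR3G passed the 2-fold rule. POLR3G (NM_006467) had an RPKM of 2.79 in high c-Myc cells and 0.491 in low c-Myc cells, a 5.70-fold ratio with a counting interval of 4.83 to 6.76. Its log2 ratio was 1.73 with the pseudocount and 2.51 without it. POLR3GL (NM_032305) had 11.6 in high c-Myc cells and 13.1 in low c-Myc cells, a 0.883-fold ratio (0.821 to 0.949). POLR3G therefore made up 19.4% of the summed RPKM of the pair in high c-Myc cells and 3.61% in low c-Myc cells, and POLR3GL remained the more abundant in both. Of the exon bases of POLR3GL, 21.2% also belong to a same-strand gene that overlaps it, and POLR3G has pseudogene copies.

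POLR3C had an RPKM of 12.4 in high c-Myc cells and 10.4 in low c-Myc cells, a log2 ratio of 0.24. POLR3F had 1.85 and 3.18 in high and low c-Myc cells, a 0.582-fold ratio (0.519 to 0.654), and was the least abundant member in high c-Myc cells. Neither reached the 2-fold rule. Summed over the 9 Pol III subunits, RPKM was 144 in high c-Myc cells and 53.1 in low c-Myc cells, a 2.71-fold ratio.

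**Figure D2:**
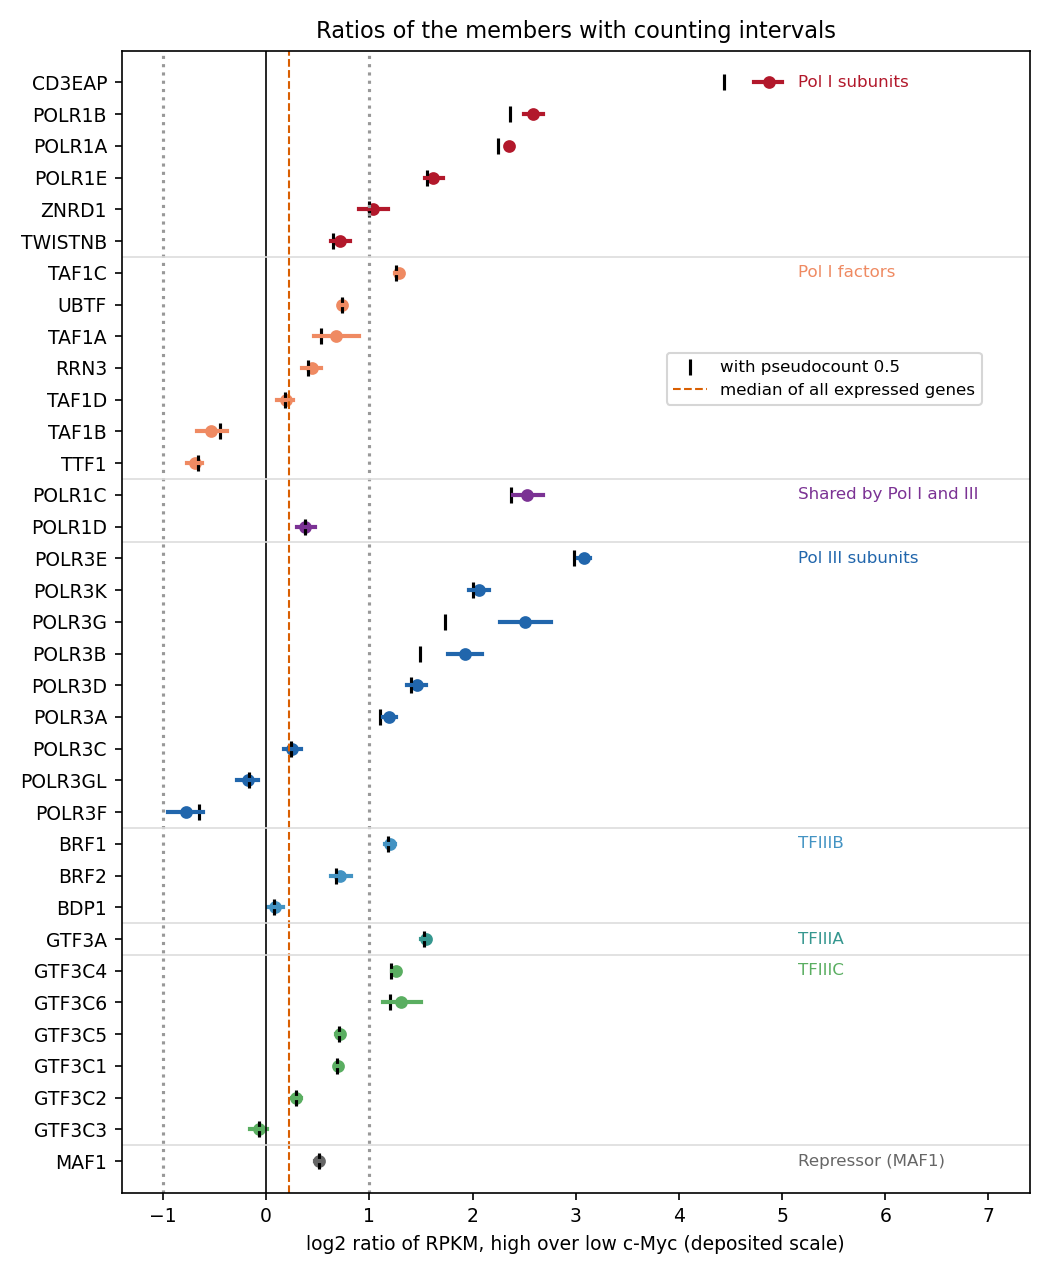
Log2 ratio of RPKM, high over low c-Myc, for each member without a pseudocount (points) with its 95% counting interval (bars), and with the pseudocount of 0.5 (ticks). Dotted lines mark log2 ratios of 1 and -1 and the dashed line marks the median of all expressed genes, 0.22. GTF3A has the largest value of any factor, and CD3EAP and POLR3E have the largest of all members.

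Of the 10 loading factors of Pol III, 4 were at least 2-fold higher, against 24.9% of all expressed genes. TFIIIB sets the enzyme on its genes. Its BRF1 subunit, used at transfer RNA genes, had an RPKM of 41.3 in high c-Myc cells and 18.0 in low c-Myc cells (log2 ratio 1.18). BRF2, which replaces BRF1 at promoters with an external TATA box, had 9.04 and 5.47 (0.68), and BDP1, needed with either, had 3.22 and 3.03 (0.08), in high and low c-Myc cells. Another BRF1 transcript, NM_001242790, had 6.41 and 1.17 in high and low c-Myc cells, a log2 ratio of 2.04, while the other BRF1 transcripts lay between 1.14 and 1.21. BRF2 is under the threshold, and 59.0% of its exon bases overlap exons of GPR124 on the opposite strand, which had a log2 ratio of 1.38.

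GTF3A, which recognises the gene of the smallest ribosomal RNA, was the most abundant member in high c-Myc cells. It had an RPKM of 109.8 there and 37.6 in low c-Myc cells, a 2.92-fold ratio with a counting interval of 2.83 to 3.01. GTF3A has 4 annotated pseudogenes and POLR3K has 2, while POLR3D and BDP1 have 1 each, and these may share reads with their genes.

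TFIIIC reads the internal promoters of transfer RNA genes. At least 2-fold higher were 2 of its 6 subunits (33.3%), against 24.9% of all expressed genes. GTF3C4 had an RPKM of 18.6 in high c-Myc cells and 7.78 in low c-Myc cells (log2 ratio 1.21), and GTF3C6 had 8.53 and 3.43 (1.20) in high and low c-Myc cells. Both carry one of the E-boxes printed above, as does GTF3C2, which had 24.2 in high c-Myc cells and 19.7 in low c-Myc cells (0.29) and shares 19.0% of its exon bases with an antisense gene. GTF3C1, the largest subunit, had 27.0 and 16.6 (0.69), and GTF3C5 had 62.9 and 38.3 (0.71), in high and low c-Myc cells. GTF3C3 had an RPKM of 4.91 in high c-Myc cells and 5.17 in low c-Myc cells, with a counting interval of its ratio, 0.896 to 1.01, that includes 1. Its log2 ratio was -0.07 as deposited and 0.31 after correction for GC content.

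MAF1, which holds Pol III back when nutrients are short, had an RPKM of 65.5 in high c-Myc cells and 46.0 in low c-Myc cells. Its log2 ratio was 0.51 as deposited, and it was below 0 after quantile normalization and after correction for GC content.

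Taken by enzyme, the order of Pol I and Pol III members depended on which members were counted and on the processing. The median log2 ratio was 0.74 for the 13 Pol I members and 1.10 for the 19 Pol III members, a difference of -0.36 for Pol I minus Pol III. Among subunits alone the order was the other way, with 1.91 for Pol I and 1.40 for Pol III. Of the Pol I members 5 (38.5%) and of the Pol III members 10 (52.6%) were at least 2-fold higher, against 24.9% of all expressed genes. The difference of medians was 0.03 when only members with a mean RPKM of at least 5 were kept and 0.32 after correction for GC content. Genes of one library pair are not replicates, and the difference was not tested.

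**Figure D3:**
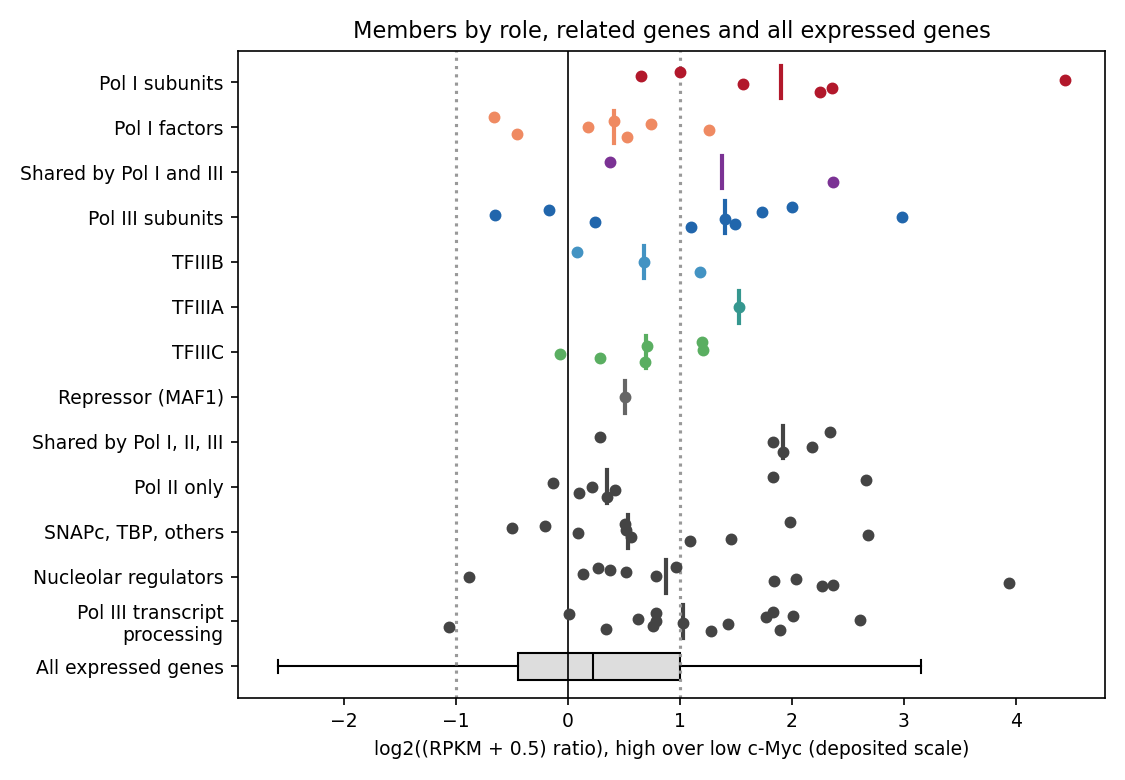
Log2 ratio with the pseudocount of 0.5, high over low c-Myc, for each member by role and for related genes (points, one per gene, spread vertically for display), with the median of each group as a short bar. The box for all 10272 expressed genes shows the median and quartiles, with whiskers to 1.5 times the interquartile range and no outlying genes drawn; the medians of Pol I subunits and of subunits shared by all polymerases lie furthest to the right among groups of 3 or more genes.

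By role, subunits and factors stood as follows. Of the 17 subunits of Pol I and Pol III, shared ones included, 11 (64.7%) were at least 2-fold higher, with a median log2 ratio of 1.49. Of the 17 factors, 5 (29.4%) were, with a median of 0.68. The share over all expressed genes was 24.9%, near that of the factors. The summed RPKM of the subunits was 332 in high c-Myc cells and 115 in low c-Myc cells (2.89-fold), and that of the factors was 472 and 259 in high and low c-Myc cells (1.83-fold). By summed RPKM the factors were thus the more abundant group in both libraries. By median RPKM they were lower than the subunits in high c-Myc cells (14.4 against 16.9) and higher in low c-Myc cells (11.4 against 5.72).

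Genes that work beside these enzymes were followed as 5 related lists, chosen by function but with earlier results of these data known. Their counts at 2-fold stand against 24.9% of all expressed genes higher and 9.74% lower. Of the 5 subunits common to all nuclear RNA polymerases, 4 were at least 2-fold higher, with a median log2 ratio of 1.92. POLR2L had an RPKM of 241 in high c-Myc cells and 47.3 in low c-Myc cells (log2 ratio 2.34), and POLR2F had a log2 ratio of 2.18. The 2 lowest were POLR2H at 1.83 and POLR2K at 0.29. Of 7 subunits of RNA polymerase II alone, 2 (28.6%) were at least 2-fold higher, near the share over all expressed genes, and the median was 0.35. These were POLR2I at 2.66 and POLR2J at 1.83, while POLR2B had 0.10 and POLR2G -0.13. These Pol II subunits are given for comparison, and no difference from the members was tested.

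Among 10 genes of the snRNA-activating complex, the TATA-binding protein and further genes of Pol III transcription, 4 were at least 2-fold higher, with a median of 0.54. The highest was SNAPC4, the largest subunit of that complex, at 2.68, with an RPKM of 89.1 in high c-Myc cells and 13.5 in low c-Myc cells. The lowest were the activators ZNF143 at -0.20 and POU2F1 at -0.50. Among 12 nucleolar and chromatin regulators of ribosomal DNA, 5 were at least 2-fold higher, with a median of 0.88. MYBBP1A, a nucleolar protein, had an RPKM of 176 in high c-Myc cells and 11.0 in low c-Myc cells (log2 ratio 3.94), and NOLC1, a nucleolar phosphoprotein, had 2.37. KDM2A, a histone demethylase, had 0.14, and BAZ2A, a subunit of the complex that silences ribosomal genes, had -0.88.

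Of 15 genes that process or bind Pol III transcripts, 8 were at least 2-fold higher, 1 was at least 2-fold lower, and the median was 1.03. The highest were POP7 at 2.61 and RPP25 at 2.01, both subunits of RNases that trim these RNAs, and RPP30, of the same enzymes, had 0.01. LARP7, which binds a Pol III transcript that restrains elongation by Pol II, was lower, with an RPKM of 8.05 in high c-Myc cells and 17.4 in low c-Myc cells (log2 ratio -1.06).

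The scale chosen bears on these counts. Under quantile normalization, which moved the median of all expressed genes from 0.22 to -0.09, 4 Pol I and 5 Pol III members were at least 2-fold higher, and over all genes 17.3% were higher and 17.2% lower. Centring on the median of all expressed genes left 5 Pol I and 6 Pol III members, with 19.8% of all expressed genes higher and 14.8% lower. Scaling both libraries to an equal sum of RPKM over genes left 4 Pol I and 6 Pol III members, with 18.2% of all expressed genes higher and 16% lower. CD3EAP, POLR1A, POLR1B, POLR1E, POLR1C, POLR3E, POLR3K, POLR3G, POLR3B and POLR3D were at least 2-fold higher under each alternative on the deposited scale that kept them, and all 10 are subunits. POLR3B and POLR3G were left out at a mean RPKM of at least 5, and CD3EAP was left out with the members that overlap another gene. BRF1, GTF3A, GTF3C4, GTF3C6, POLR3A and TAF1C were under 2-fold with 1 or more of the scalings, BRF1 and TAF1C also after GC correction. The sign of the log2 ratio turned below 0 under 1 or more of the scalings for BDP1, GTF3C2, MAF1, POLR1D, POLR3C and TAF1D.

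GC content of the transcript moved with the ratios, and its part in them was not tested beyond the correction given here. Over 9949 expressed genes with a GC value, Spearman's rho between GC content and log2 ratio was 0.41 (Pearson's r 0.42), and over the 35 members it was 0.34 (0.28), as descriptions across genes of the same pair of libraries. The 17 members of lower GC content (34.3 to 48.5%) had a median log2 ratio of 0.41, and the 18 of higher GC content (48.5 to 62.9%) had 1.14. After the correction 16 members were at least 2-fold higher, against 22.2% of all genes with a value, of which 6 belonged to Pol I and 9 to Pol III. BRF1 had a log2 ratio of 0.24 after it and TAF1C one of 0.72, while TWISTNB had 1.35 and TAF1A 1.05. CD3EAP, at 4.39, and POLR3E, at 3.02, were little moved, and POLR3G, the most AT-rich member with a GC content of 34.3%, stood at 2.43.

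**Figure D4:**
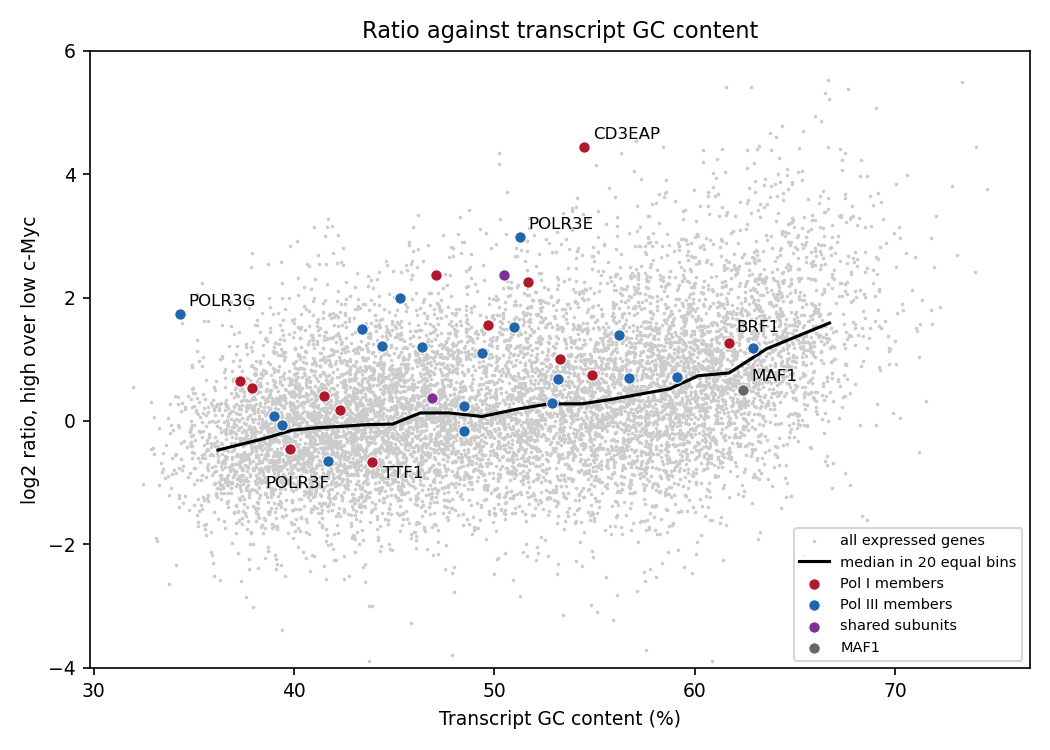
Log2 ratio with the pseudocount of 0.5, high over low c-Myc, against transcript GC content in percent for all expressed genes with a GC value (grey; 5 genes lie outside the drawn range), with the median in 20 equal bins (line) and the members by enzyme (coloured). CD3EAP, POLR3E and POLR3G lie far above the line, while BRF1 and MAF1 lie near or under it.

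Scaled by the synthetic RNAs to a per-cell level, every member was at least 2-fold higher in high c-Myc cells. So were 97.1% of all expressed genes, and 0.0876% were at least 2-fold lower, so the count does not set the members apart. The synthetic RNAs were a median of 5.88-fold more abundant in low c-Myc cells on the deposited scale, and per-cell ratios were obtained by removing that factor. The median per-cell log2 ratio was 3.29 for the members and 2.78 for all expressed genes. At least 4-fold higher were 33 of 35 members, against 79% of all expressed genes, and POLR3F and TTF1 were 3.76-fold and 3.74-fold higher. CD3EAP was 127-fold higher per cell and POLR3E 46.3-fold. These per-cell ratios were taken with the pseudocount. In the authors' deposited column renormalized to the synthetic RNAs, the ratios of the members lay between 2.74-fold for POLR3F and 135-fold for CD3EAP. Those ratios were taken without a pseudocount, so they are not directly comparable with the per-cell ratios above. Over all expressed genes, the authors' column gave a median log2 ratio of 2.25, against 2.78 here. It placed 90% of them at least 2-fold higher, against 97.1%.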

How the data were processed

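Poly(A)-selected RNA was sequenced from 1 library per condition. Per the labels' protocols, synthetic ERCC RNAs were added to total RNA by cell number, and strand-keeping libraries were amplified by PCR. Per the submitters' processing notes, reads were handled with Bowtie on hg18; the counting tool, its use of strand and its treatment of reads with several matches are not stated in the sources at hand. The authors deposited RPKM values per transcript and a second RPKM column, renormalized by the synthetic RNAs, per the file headers, with 34286 rows of which 92 were synthetic. The renormalized column served as an alternative and as the authors' own ratios.

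Ratios were log2((RPKM + 0.5) high over low c-Myc), which understates differences of weak genes. Per-cell ratios had the median log2 ratio of 46 synthetic RNAs with an RPKM of 1 or more in each library (-2.56, interquartile range -2.84 to -2.17) subtracted. Genes at a mean RPKM of at least 1 were counted as higher or lower at a log2 ratio of 1 or -1. Counting intervals were 95% exact binomial intervals on reads worked out from RPKM, implied depth and transcript lengths of GENCODE release 29, which may differ from the authors' lengths; PCR copies are not independent molecules, so these intervals cover counting error alone. GC correction subtracted the median ratio in 20 bins of transcript GC content and re-added the overall level. RefSeq promoter windows of the members were matched by gene ID. Those of all expressed genes were matched by symbol, which leaves out genes whose symbol has changed.

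All members could be named, and of each related list the 2 highest and 2 lowest, except for an item that is not reported here. The members and lists were chosen with earlier results of these data known. Alternatives changed the pseudocount, filter, transcript row, grouping, scaling and GC correction. The calculations were tested on simulated data and run in Python 3.11.15 with pandas 2.3.3, scipy 1.17.1, matplotlib 3.10.9 and numpy 2.4.6.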

Additional observations from a re-analysis of the deposited data

How the results depend on the processing

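On the deposited scale, 10 of the 16 higher members were at least 2-fold higher under each alternative that kept them; POLR3B and POLR3G were left out at a mean RPKM of at least 5 and CD3EAP by the exon overlap. BRF1, GTF3A, GTF3C4, GTF3C6, POLR3A and TAF1C were not under 1 or more, and TAF1A, TWISTNB and ZNRD1 passed under 1 or more. No member was at least 2-fold lower under any alternative, and per cell all members kept at each setting were higher. The Pol I minus Pol III difference of medians (-0.36) turned to 0.03 at a mean RPKM of at least 5, where the Pol I median was 1.13, and to 0.32 after GC correction, with medians of 0.95 for Pol I and 0.63 for Pol III. It was -0.45 without a pseudocount (Pol III median 1.19), -0.17 with MAF1 counted in Pol III (Pol III median 0.91) and -0.14 under quantile normalization. The Pol I and Pol III medians were 0.52 and 0.88 when centred on all expressed genes, 0.42 and 0.80 at the same RPKM sum, and 0.48 and 0.62 under quantile normalization. Under these scalings the Pol III count of 10 was 6, 6 and 5 and the Pol I count of 5 was 5, 4 and 4, with 19.8%, 18.2% and 17.3% of all expressed genes higher, against 24.9% as deposited. Without members of which at least 10% of exon bases overlap another gene, an alternative chosen after seeing the data, the medians were 0.65 and 1.19 and the difference -0.54. The cause was not tested. Of the single-gene values, 654 stayed within the counting interval and 272 moved beyond it; 9 members changed between called and not called, and none changed from higher to lower. No paired analysis was possible because each condition has 1 library. Depth limits POLR3G most, which had about 166 reads in low c-Myc cells.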
